A study of Sus scrofa domesticus with 9 samples.

Results

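The Toll-like receptors TLR1 to TLR10 were followed in the lung mRNA of pigs (Sus scrofa domesticus) fed an increased or a standard dose of cholecalciferol, which is vitamin D3. The 10 receptors were taken by gene name from the 35670 genes of the table, and each had 1 row. Lung tissue came from 5 female pigs on the increased dose (animals 3, 19, 27, 51 and 59) and 4 female pigs on the standard dose (animals 9, 17, 33 and 41), with 1 library per animal, and each library is called a replicate by its animal number. The feed of both groups was otherwise the same and was given for 88 days, and tissue was taken from the upper lobe of the left lung at slaughter. The labels and the paper's methods give the RNA samples as female and were followed, whereas the paper's discussion speaks of males for the mRNA sequencing. The labels give no strain or genotype. RNA had been taken from 10 lung samples, and 1 library was rejected by the authors for its low number of reads. The question of the comparison was how the higher intake of cholecalciferol changed gene expression in the lung.

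Toll-like receptors are membrane proteins of innate immunity that recognise molecules of microbes through an outer domain of leucine-rich repeats and signal through an inner TIR domain. TLR1, TLR2, TLR4, TLR5, TLR6 and TLR10 act at the cell surface, and TLR3, TLR7, TLR8 and TLR9 sense nucleic acids inside endosomes. Most of them signal through the adaptor MYD88 to NF-kB and to inflammatory cytokines, whereas TLR3 signals through TICAM1, which TLR4 uses as a further route. In lung they are carried by macrophages, dendritic cells, neutrophils, epithelium and endothelium, and a count from whole tissue sums over these cells. In such tissue, fewer cells of a type and less RNA per cell cannot be told apart.

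The receptors lie at 7 places of the pig genome Sscrofa11.1, in the coordinates of the deposited annotation. TLR10 (ENSSSCG00000027877, chr8:30124895-30134854), TLR1 (ENSSSCG00000026583, chr8:30147624-30155466) and TLR6 (ENSSSCG00000026592, chr8:30159754-30180650) are neighbours on the minus strand of chromosome 8, where TLR2 (ENSSSCG00000009002, chr8:75411993-75428330) lies apart from them. TLR7 (ENSSSCG00000012117, chrX:9550792-9577348) and TLR8 (ENSSSCG00000012118, chrX:9597604-9616757) are neighbours on the plus strand of chromosome X. TLR4 (ENSSSCG00000005503) lies at chr1:258044610-258058970 on the plus strand and TLR3 (ENSSSCG00000015801) at chr15:46969006-46979291, also on the plus strand. TLR5 (ENSSSCG00000010885) lies at chr10:19387666-19410024 and TLR9 (ENSSSCG00000011436) at chr13:34349609-34357673, both on the minus strand. The coding part of TLR1, TLR2, TLR6 and TLR7 was in 1 exon in their longest RefSeq transcripts, against 3 coding exons for TLR4 and 6 for TLR3.

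TLR2 and TLR4 were the receptors whose values in the increased-dose and the standard-dose libraries did not overlap, and their promoters are shown for that reason. Each sequence runs from 250 bases before to 50 bases after the RefSeq gene start on Sscrofa11.1 and is read 5′ to 3′ on the strand of the gene. The capitals mark matches to GAGGAA on either strand, the core of sites of PU.1-type ETS factors of myeloid cells, and to AGGTCA on either strand, the core of sites of nuclear receptors, the family of the vitamin D receptor. TLR4 (chr1:258044360-258044659, plus strand) and TLR2 (chr8:75428321-75428620, minus strand) read as follows.
TLR4: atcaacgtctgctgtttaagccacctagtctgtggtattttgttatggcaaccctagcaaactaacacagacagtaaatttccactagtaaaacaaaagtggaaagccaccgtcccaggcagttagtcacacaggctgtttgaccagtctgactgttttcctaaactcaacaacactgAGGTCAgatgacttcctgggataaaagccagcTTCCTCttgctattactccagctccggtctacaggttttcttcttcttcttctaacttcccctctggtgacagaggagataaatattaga
TLR2: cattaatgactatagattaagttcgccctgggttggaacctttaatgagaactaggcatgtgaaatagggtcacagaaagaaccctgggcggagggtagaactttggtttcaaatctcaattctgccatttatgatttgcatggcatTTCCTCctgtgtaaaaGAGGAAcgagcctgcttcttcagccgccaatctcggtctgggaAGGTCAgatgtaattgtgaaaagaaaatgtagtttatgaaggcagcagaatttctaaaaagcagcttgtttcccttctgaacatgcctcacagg
In TLR4 the nuclear receptor core began at position −72 from the gene start and 1 ETS core at −40. In TLR2 the ETS cores began at −103 and −87 and the nuclear receptor core at −44. Both strands were searched in all 10 receptor promoters, for these motifs, for the AP-1 motif TGACTCA and for TATAAA, the core of the TATA box. GAGGAA was in the promoters of 5 receptors (TLR1, TLR2, TLR4, TLR6 and TLR8), against 25.9% of 19556 promoters of protein-coding genes. RefSeq gives TLR8 a first exon upstream of TLR7, so its window lay there and not before the TLR8 start of the deposited annotation. AGGTCA was in the promoters of 5 receptors (TLR1, TLR2, TLR3, TLR4 and TLR6), against 14.1% of all promoters. TGACTCA was in the TLR10 promoter alone (3.42% of all promoters), and TATAAA was in 0 of the 10 (10.9% of all). These are matches of letters within 300 bases and not sites shown to be bound.

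The kit used (QuantSeq FWD) gives about 1 read per transcript, taken at the 3′ end. The count of a gene is therefore little tied to transcript length, and levels of different receptors are set side by side. How fully the 3′ end of each receptor was annotated and captured was not tested, and the order of their levels holds with that limit. All values are normalized counts, that is, reads over a library's size factor from DESeq2. There were 4427608 to 5919294 reads in genes per increased-dose library and 4253502 to 5411543 per standard-dose library, and 1 read was worth 0.853 to 1.49 normalized counts. Lung markers were measured in every library, with a mean log2 level of type 2 pneumocyte markers of 10.4 to 10.97 at the increased dose and 8.35 to 10.4 at the standard dose. Standard dose replicates 9 and 41 stood apart. Markers of hepatocytes, cells of the liver, were at 13.8 in replicate 9 and 12.2 in replicate 41, against 10.3 to 11.3 in the other 7 libraries, and endothelium markers at 7.88 and 7.87, against 8.62 to 9.14. Type 2 pneumocyte markers were low in replicate 9 (8.35), and macrophage and monocyte markers in replicate 41 (7.85, against 9.27 to 9.83 in the other 7). Type 1 pneumocyte markers were at 8.78 to 9.94 at the increased dose. They were at 7.17 in replicate 9, 8.33 in replicate 41 and 8.66 and 8.76 in replicates 17 and 33. The groups did not overlap on this scale, though 8.78 and 8.76 lay close together. The summed counts of these markers did overlap, with 7939 to 13887 at the increased dose and 2491 to 8058 at the standard dose. Skeletal muscle markers were at 13.1 in replicate 41, against 11.07 to 12.4 at the increased dose and 10.47 to 12.2 in the other standard-dose libraries.

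All 10 receptors had reads, with TLR4, TLR2 and TLR3 at the top and TLR9 and TLR10 near 0. By mean over the 9 libraries the order of normalized counts was TLR4 (211), TLR2 (174), TLR3 (140), TLR8 (77.2), TLR7 (27.7), TLR1 (24.3), TLR5 (21.1), TLR6 (14.05), TLR9 (3.56) and TLR10 (1.47). TLR4, the receptor of bacterial lipopolysaccharide, was 3953rd of the 35670 genes by mean count. The ranges over the 9 libraries overlapped for every pair of neighbours in this order. TLR8 was nevertheless above TLR7 in 9 of 9 libraries, and TLR6 above TLR9 in 9 of 9. TLR3 was above TLR8 in 8 libraries and TLR4 above TLR2 in 7, but TLR9 was above TLR10 in 4. TLR2, TLR3 and TLR4 were the 3 highest receptors in 8 libraries, and in standard dose replicate 33 TLR3 and TLR8 had the same count (114). TLR9 and TLR10 were the 2 lowest in all 9.

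**Figure D1:**
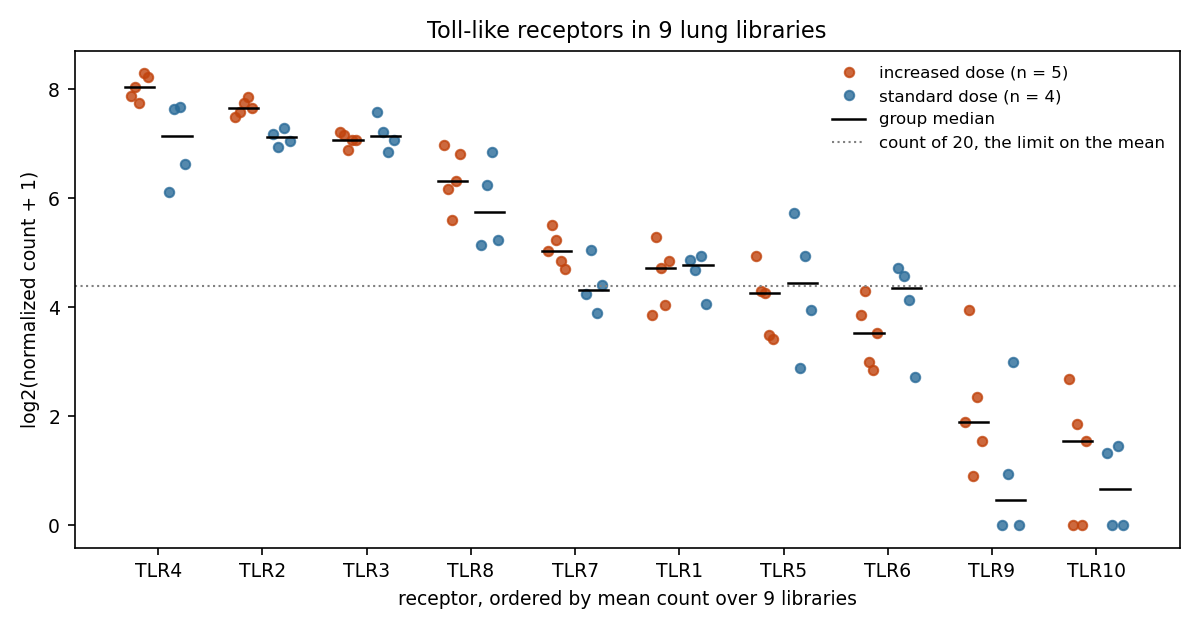
Level of each Toll-like receptor, as log2(normalized count + 1), in 5 increased-dose libraries (left of each pair) and 4 standard-dose libraries (right), with 1 point per library and a black line at the group median. The receptors run from TLR4, with a mean of 211 counts, down to TLR10, with 1.47, and the dotted line marks a count of 20, above which the mean of a gene had to lie to be tested.

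Of the 10 receptors, 7 had a mean count over 20 and were tested among the 12446 genes of that level, and TLR6, TLR9 and TLR10 were not. By limma on log2(normalized count + 1), 0 of the 7 passed an adjusted p of 0.05, as did 0% of all genes tested, whose smallest adjusted p was 0.397. Before adjustment 2 of the 7, TLR4 and TLR2, had a p under 0.05, against 12.2% of all genes tested. The log2 fold change, increased dose minus standard dose, was positive for 4 receptors and negative for 3, with a median of 0.51, against 0.01 over all genes tested. Without standard dose replicates 9 and 41 the median was 0.22 over the 6 receptors that could still be tested. The added 1 makes fold changes too small for receptors with few reads. The groups did not overlap, with all increased-dose libraries higher, for 2 of the 7 receptors, against 1.8% of all genes tested.

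TLR4 binds lipopolysaccharide together with LY96 (MD-2). It had 233, 264, 214, 313 and 300.4 normalized counts in increased dose replicates 3, 19, 27, 51 and 59, against 68.6, 199, 203 and 98.5 in standard dose replicates 9, 17, 33 and 41. All 5 increased-dose libraries were above all 4 standard-dose libraries, but the nearest values, 214 and 203, lay close together, and the distance came mostly from replicates 9 and 41. The mean was 265 ± 42.3 at the increased dose and 142 ± 68.9 at the standard dose (SD, n = 5 and 4). This was a log2 fold change of 1.02 (standard error 0.33, 95% interval 0.32 to 1.73), with an adjusted p of 0.397 by limma. The exact two-sided permutation p for TLR4 alone was 0.00794, the smallest that 5 against 4 libraries allow. Without standard dose replicates 9 and 41 the log2 fold change was 0.38 and the exact permutation p 0.0952, where the smallest possible is 0.0476. Over the libraries left out singly the log2 fold change lay between 0.72 and 1.24. The exact permutation p was then 0.0179 to 0.0286, the smallest that 5 against 3 and 4 against 4 libraries allow. Groups that do not overlap always give the smallest p, so these values add nothing to the lack of overlap.

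By mean log2 level, the 2 libraries with low TLR4 had the lowest endothelium, neutrophil and type 1 pneumocyte markers and the highest hepatocyte markers. The summed count of type 1 pneumocyte markers was low in replicate 9 (2491) but not in replicate 41 (8051, against 7939 to 13887 at the increased dose). Macrophage and monocyte markers were low in replicate 41 (7.85) but not in replicate 9 (9.42, against 9.27 to 9.83 at the increased dose). Type 2 pneumocyte markers were low in replicate 9 (8.35) but not in replicate 41 (10.4). TLR4 rested on 46 reads in replicate 9 and 88 in replicate 41, against 218 and 233 in replicates 17 and 33 and 246 to 312 in the increased-dose libraries. Over all 6 endothelium markers, of which none was at 0 in all libraries, the summed count was 3554 to 5111 in the increased-dose libraries and 2118 to 4768 in the standard-dose libraries, with 2118 in replicate 9 and 2433 in replicate 41. Over the 13 measured hepatocyte markers, of which none was at 0 in all libraries, the sum was 27714 to 57061 at the increased dose and 49041 to 311041 at the standard dose. Neutrophils and macrophages are cells that carry TLR4, TLR2 and TLR8. The mean log2 level of the 7 measured neutrophil markers was 5.89 to 7.10 in increased-dose libraries, against 5.53 and 4.81 in standard dose replicates 9 and 41 and 6.21 and 6.75 in replicates 17 and 33. Their summed count was 1808 to 2862 at the increased dose and 488 to 2237 at the standard dose, and that of 12 macrophage and monocyte markers 13191 to 20071 at the increased dose and 4370 to 16069 at the standard dose, with no marker at 0 in all libraries. The part of these cell types in the TLR4 difference was not tested.

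**Figure D2:**
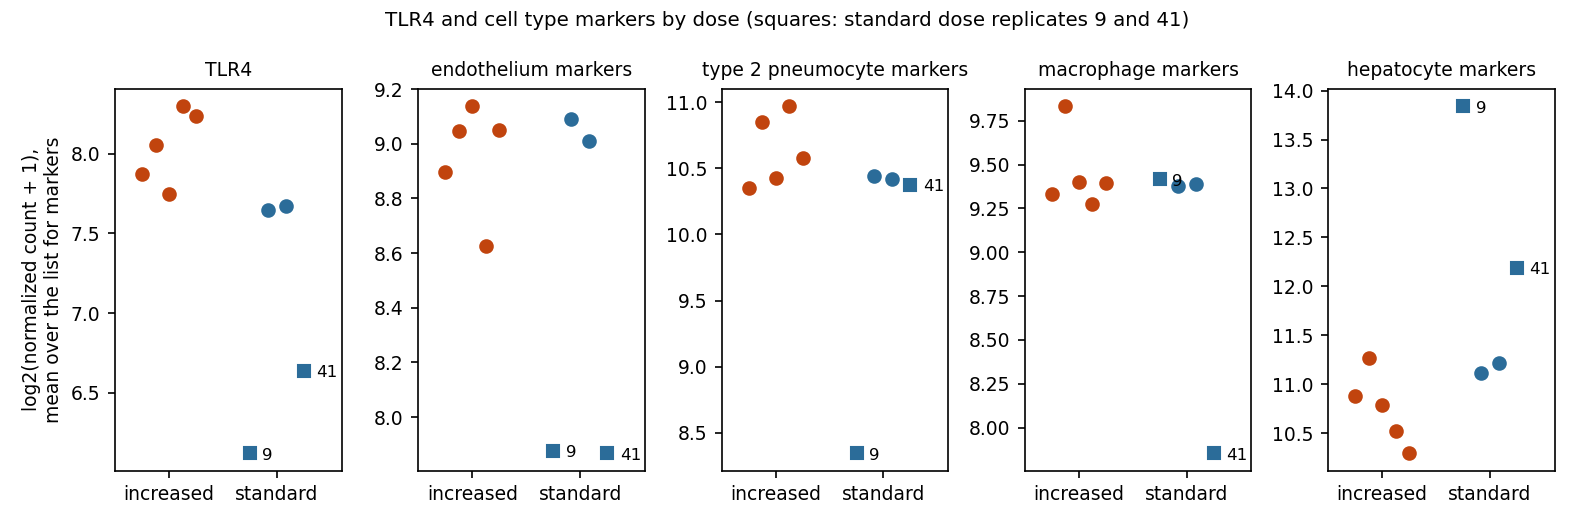
TLR4 and the mean level of 4 marker lists, each as log2(normalized count + 1), by library, with the increased dose on the left and the standard dose on the right and an axis of its own in each panel, which does not start at 0. The squares are standard dose replicates 9 and 41, which are low in TLR4 and in endothelium markers (7.88 and 7.87) and high in hepatocyte markers (13.8 and 12.2).

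TLR2 recognises bacterial lipopeptides in pairs with TLR1 or TLR6. It had 178, 190.2, 213, 232 and 201 normalized counts in increased dose replicates 3, 19, 27, 51 and 59, against 145, 122, 157 and 132 in standard dose replicates 9, 17, 33 and 41. The lowest increased-dose value was 178 and the highest standard-dose value 157, and no library of either group lay far from the rest. The mean was 203 ± 20.7 at the increased dose and 139 ± 15.2 at the standard dose (SD, n = 5 and 4). On the log2 scale the difference was 0.55 (standard error 0.21, 95% interval 0.10 to 0.99) with an adjusted p of 0.397 by limma. The exact permutation p for TLR2 alone was also 0.00794. The fold change stayed at 0.55 without standard dose replicates 9 and 41, and 0.49 to 0.61 with each library left out in turn. The coefficient of variation among libraries was 10.2% at the increased dose and 10.95% at the standard dose, where counting alone would give 6.76% and 8.91%.

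Tests on reads gave similar fold changes for TLR4 and TLR2. edgeR on the recovered reads gave log2 fold changes of 0.90 and 0.56 and adjusted p of 0.238 for both. DESeq2 gave 0.89 and 0.55, with adjusted p of 0.214 for TLR4 and 0.305 for TLR2. edgeR called 0 receptors and 0% of all genes tested, with 1871 of them at an unadjusted p under 0.05. DESeq2 called 0 receptors and 1.57% of all genes tested. Within a library, TLR4 stood above TLR2 in 5 of 5 increased-dose and 2 of 4 standard-dose libraries, and the count ratio of TLR4 to TLR2 was 1.00 to 1.49 at the increased dose and 0.474 to 1.64 at the standard dose. TLR2 and TLR4 together made up 52.7 to 66.3% of the counts of the 10 receptors at the increased dose and 37.8 to 52.4% at the standard dose.

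**Figure D3:**
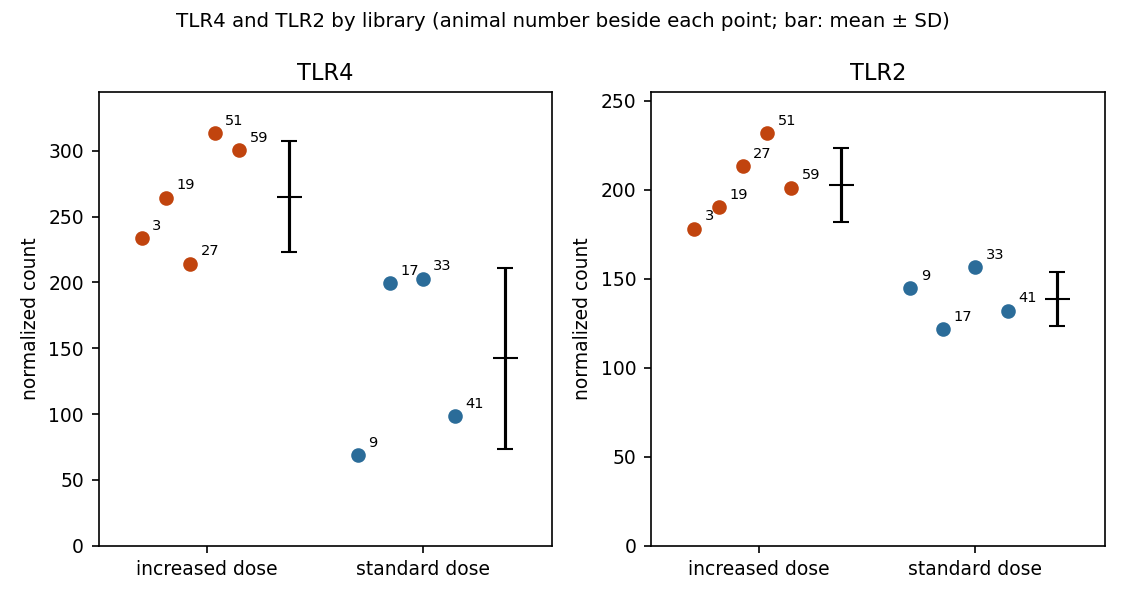
Normalized counts of TLR4 and TLR2 in each library, with the animal number beside each point, the increased dose left of the standard dose and a bar for mean ± SD. In both panels the increased-dose points lie above the standard-dose points, from 214 against 203 for TLR4 and from 178 against 157 for TLR2.

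The partners of TLR2 had fewer reads and showed no such separation. TLR1 had 13.6, 38.4, 25.2, 15.5 and 27.9 normalized counts in increased dose replicates 3, 19, 27, 51 and 59, against 28.3, 24.7, 29.6 and 15.7 in standard dose replicates 9, 17, 33 and 41. The groups covered nearly the same range, and the log2 fold change of −0.08 (standard error 0.46, 95% interval −1.08 to 0.92, adjusted p = 0.949 by limma) turned to 0.09, 0.05 and 0.02 without increased dose replicate 3, increased dose replicate 51 and standard dose replicate 33, and was −0.25 without standard dose replicates 9 and 41. TLR6 had 13.6, 18.8, 6.97, 6.18 and 10.6 counts at the increased dose, against 25.4, 22.9, 16.5 and 5.60 at the standard dose, and both groups held low and high libraries. Its difference in mean log2 level was −0.53 with an exact permutation p of 0.317, and −0.85 without replicates 9 and 41. TLR10, a relative of TLR1 and TLR6 whose ligands are less well known, had 5.43, 0, 2.61, 0 and 1.93 counts at the increased dose and 1.49, 0, 1.74 and 0 at the standard dose. These are 11 reads in 5 libraries and 3 reads in 4 libraries, and the exact permutation p was 0.444. A library with 0 reads allows up to 3 reads, or 2.56 and 3.09 normalized counts in increased dose replicates 19 and 51 and 2.74 and 3.36 in standard dose replicates 17 and 41. Such limits cover counting error only.

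Counts of TLR1 are uncertain where its transcript is identical to that of its neighbour TLR6. Of the 3120 windows of 75 bases, the length of a read, in the longest RefSeq transcript of TLR1, 513 (16.4%) were identical in TLR6. In the last 500 bases of TLR1, nearest to where the kit reads, 55 of 426 windows were shared, against 0 of 426 in the last 500 bases of TLR6. TLR10 shared 0 such windows with TLR1 or TLR6. The summed count of TLR1, TLR6 and TLR10 was 21.6 to 57.2 at the increased dose and 21.3 to 55.2 at the standard dose.

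TLR5, the receptor of bacterial flagellin, varied most within the standard dose among the tested receptors. It had 29.8, 18.8, 18.3, 10.3 and 9.63 normalized counts in increased dose replicates 3, 19, 27, 51 and 59, against 52.2, 6.40, 29.6 and 14.6 in standard dose replicates 9, 17, 33 and 41. The highest and the lowest library were both on the standard dose, and its coefficient of variation there was 78.3%, where counting alone would give 21.8%. Its log2 fold change was −0.29 (standard error 0.65, 95% interval −1.70 to 1.11, adjusted p = 0.861 by limma). Without standard dose replicate 17 it was −0.79. Without standard dose replicate 9 the mean count was under 20, and the difference in mean log2 level turned to 0.16 (exact permutation p = 0.804).

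Of the endosomal receptors, TLR3, which recognises double-stranded RNA, was the most abundant and the least variable, with a highest library 1.68 times its lowest. It had 148, 142, 118, 134 and 133 normalized counts in increased dose replicates 3, 19, 27, 51 and 59, against 191, 148, 114 and 134 in standard dose replicates 9, 17, 33 and 41. The increased-dose libraries lay inside the range of the standard-dose libraries, and their coefficient of variation of 8.64% was near the 8.27% of counting alone. At the standard dose the coefficient of variation was 22.2%, where counting alone would give 8.81%. Between the doses the log2 fold change was −0.10 (standard error 0.23, 95% interval −0.59 to 0.39, adjusted p = 0.867 by limma). It was 0.04 without standard dose replicate 9, which had the highest TLR3 count.

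TLR7 and TLR8 recognise single-stranded RNA and were set apart from each other by their levels. TLR8 had 125, 70.8, 47.9, 79.3 and 112 normalized counts in increased dose replicates 3, 19, 27, 51 and 59, against 34.3, 75.0, 114 and 36.9 in standard dose replicates 9, 17, 33 and 41. The lowest libraries were standard dose replicates 9 and 41, as for TLR4 and for neutrophil markers, but standard dose replicate 33 stood among the highest. The log2 fold change was 0.51 (standard error 0.41, 95% interval −0.37 to 1.39, adjusted p = 0.584 by limma), and −0.17 without replicates 9 and 41. TLR7 had 31.7, 44.4, 36.6, 27.8 and 25.03 counts at the increased dose, against 17.9, 32.0, 13.9 and 20.1 at the standard dose. All but standard dose replicate 17 of the standard-dose libraries were below every increased-dose library. For TLR7 the log2 fold change came to 0.67 (standard error 0.41, 95% interval −0.22 to 1.55, adjusted p = 0.477 by limma), with an exact permutation p of 0.0556. Leaving out replicate 17 took away the overlap, and the exact permutation p was then 0.0179, the smallest that 5 against 3 libraries allow. With any other single library left out it was 0.0857 to 0.143. Without replicates 9 and 41 the TLR7 fold change was 0.59 and the exact permutation p 0.238. The count ratio of TLR7 to TLR8 was 0.224 to 0.764 at the increased dose and 0.122 to 0.545 at the standard dose.

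TLR9, the receptor of unmethylated CpG DNA, was near the limit of detection. It had 2.71, 14.5, 0.871, 4.12 and 1.93 normalized counts in increased dose replicates 3, 19, 27, 51 and 59, against 0, 0.914, 6.96 and 0 in standard dose replicates 9, 17, 33 and 41. A single library stood high in each group, increased dose replicate 19 with 17 reads and standard dose replicate 33 with 8. The counts came to 27 reads in 5 libraries and 9 reads in 4 libraries, and 0 reads allow up to 4.48 normalized counts in replicate 9 and 3.36 in replicate 41. The difference in mean log2 level was 1.15 with an exact permutation p of 0.230, and it was 0.17 without replicates 9 and 41. The coefficient of variation among libraries was 115% at the increased dose and 170% at the standard dose, where counting alone would give 43.1% and 66.7%.

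**Figure D4:**
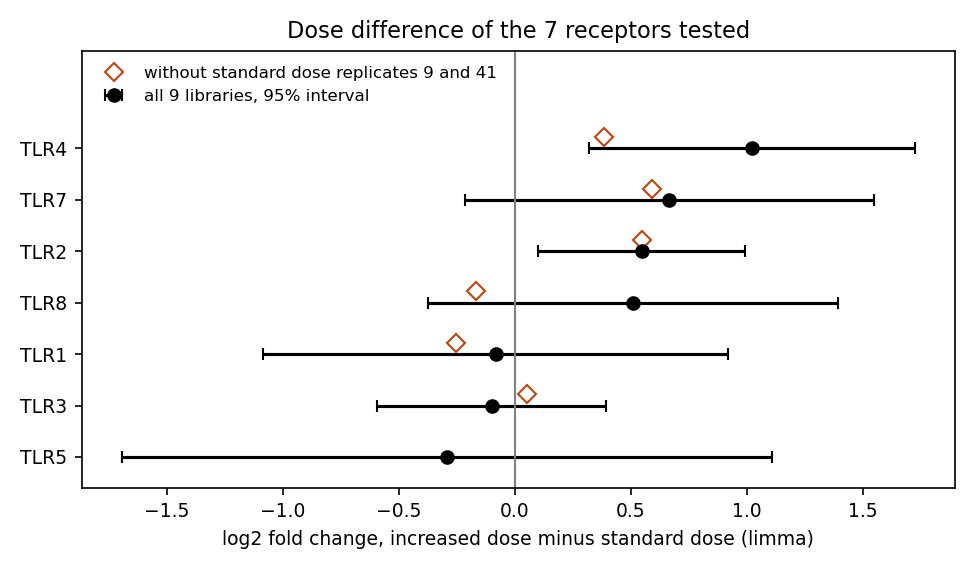
Log2 fold change of the 7 receptors tested, increased dose minus standard dose, with the 95% interval of limma over all 9 libraries (black), and the value without standard dose replicates 9 and 41 (open diamonds, absent for TLR5, whose mean count then fell under 20). The intervals of TLR4 and TLR2 lie above 0, and the diamonds move to 0.38 for TLR4 and to −0.17 for TLR8.

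Summed over the 6 surface receptors, the counts were 474 to 577 at the increased dose and 266 to 437 at the standard dose, and the groups did not overlap, as for TLR4 and TLR2, which make up most of the sum. Summed over the 4 endosomal receptors they were 203 to 308 at the increased dose and 191 to 256 at the standard dose. The surface receptors held 60.6 to 70.3% of the counts of all 10 in increased-dose libraries and 56.9 to 63.7% in standard-dose libraries. These sums are descriptions and were not tested.

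The genes whose levels were most like those of TLR4 over the 9 libraries were MEX3C, SORT1 and OLFM1. Likeness was taken as the root mean square difference of log2 levels after each gene was centred on its mean, which was 0.17, 0.18 and 0.18, against a median of 0.84 over all genes tested and 0.69 for the TLR4 values around their own mean. MEX3C, an RNA-binding ubiquitin ligase, had 150.1, 177, 182, 224 and 251 normalized counts in increased dose replicates 3, 19, 27, 51 and 59, against 49.2, 158, 179 and 90.7 in standard dose replicates 9, 17, 33 and 41. MEX3C too was lowest in standard dose replicates 9 and 41, which follows from its choice by likeness to TLR4 over these libraries.

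The other genes of the pathway were described over 8 lists with 103 genes, of which 98 were measured and 82 tested. By limma and by edgeR 0 of the 82 passed the adjusted threshold, with 9 at an unadjusted p under 0.05 by limma, 11% of the 82 against 12.2% of all genes tested. DESeq2 called 1 (1.22%, against 1.57% of all genes tested), LGMN, with an adjusted p of 0.0329. It gave no adjusted p for CD14, LBP and TOLLIP, which it therefore could not call. The groups did not overlap for 1 gene that was higher at the increased dose (LGMN), 1.22% against 1.8% of all genes tested, and for 2 that were lower (NFKB1 and TOLLIP), 2.44% against 2.01%. These shares are near those of all genes.

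Among the 7 genes of ligand delivery and co-receptors, 0 passed the test, with 4 positive and 3 negative fold changes. The median log2 fold change was 0.25, which turned to −0.10 without replicates 9 and 41. LBP, the plasma protein that carries lipopolysaccharide, had 260.5, 399, 239, 148 and 163 normalized counts in increased dose replicates 3, 19, 27, 51 and 59, against 10333, 311, 418 and 729 in standard dose replicates 9, 17, 33 and 41. Its values overlapped between the groups, and the log2 fold change of −2.13 (standard error 0.80, adjusted p = 0.397 by limma) was −0.66 without replicates 9 and 41, the libraries with high hepatocyte markers. CD14, which hands lipopolysaccharide to TLR4, had 208 to 290 normalized counts at the increased dose, against 1650.0 in standard dose replicate 9 and 222 to 304 in the other standard-dose libraries. Its log2 fold change of −0.81 was −0.08 without replicates 9 and 41. LY96, without which TLR4 does not bind lipopolysaccharide, had 88.7 to 214 counts at the increased dose and 25.7 to 202 at the standard dose, with its lowest values in standard dose replicates 9 and 41. Its log2 fold change of 0.78 (adjusted p = 0.502 by limma) was −0.26 without them. CD36, a co-receptor of TLR2, had a log2 fold change of 0.49 (0.04 without replicates 9 and 41). HMGB1, a nuclear protein that is a ligand when released, had one of −0.15.

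Of 14 genes that carry and process endosomal receptors, 13 were tested and 0 passed, with 9 positive and 4 negative fold changes and a median of 0.30. UNC93B1, which escorts the endosomal receptors, had 172 to 199.6 normalized counts at the increased dose, against 182, 154, 126.1 and 43.7 in standard dose replicates 9, 17, 33 and 41, and a log2 fold change of 0.71 (adjusted p = 0.423 by limma, and 0.39 without replicates 9 and 41). LGMN, the gene of the endosomal protease legumain, had 1131, 890, 1469, 1410 and 1493 counts in increased dose replicates 3, 19, 27, 51 and 59, against 649, 559, 768 and 712 in standard dose replicates 9, 17, 33 and 41. All increased-dose libraries were above all standard-dose libraries, and the log2 fold change of 0.91 (standard error 0.22, adjusted p = 0.397 by limma) was 0.94 without replicates 9 and 41. The chaperone HSP90B1 and its helper CNPY3 had log2 fold changes of −0.21 and 0.00, which were 0.13 and 0.23 without replicates 9 and 41, and CTSS, a cathepsin, had one of −0.16.

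Of the 6 adaptors with a TIR domain or bound to one, 5 were tested and 0 passed, with a median log2 fold change of 0.04, which turned to −0.24 without replicates 9 and 41. MYD88, the adaptor of most receptors, had 174 to 290 normalized counts at the increased dose and 70.5 to 289 at the standard dose. TIRAP, which brings MYD88 to TLR2 and TLR4, had 59.7, 90.4, 93.2, 107 and 64.5 counts in increased dose replicates 3, 19, 27, 51 and 59, against 175, 107, 100.0 and 191 in standard dose replicates 9, 17, 33 and 41. The lowest standard-dose values, 100.0 and 107, reached into the increased-dose range, and the log2 fold change of −0.76 (standard error 0.29, adjusted p = 0.397 by limma) was −0.35 without replicates 9 and 41. TICAM1, the adaptor of TLR3, had a log2 fold change of −0.50, and TICAM2, which links it to TLR4, of 0.14 (0.03 without replicates 9 and 41).

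Downstream, 0 of 16 kinases and ubiquitin ligases, 0 of 13 transcription factors and 0 of 16 inhibitors passed, with median log2 fold changes of 0.16, 0.30 and −0.08. NFKB1, the p105 and p50 subunit of NF-kB, had 418, 462, 488, 435 and 374 normalized counts in increased dose replicates 3, 19, 27, 51 and 59, against 1220.3, 525, 551 and 719 in standard dose replicates 9, 17, 33 and 41. The groups did not overlap, and standard dose replicate 9 was highest. Its log2 fold change of −0.71 (standard error 0.26, adjusted p = 0.397 by limma) was −0.31 without replicates 9 and 41. TOLLIP, an inhibitor that binds TLR2 and TLR4, had 169 to 359 counts at the increased dose, against 1963 in standard dose replicate 9 and 417 to 432 in the other standard-dose libraries, and a log2 fold change of −1.14 (−0.58 without replicates 9 and 41). TRAFD1, another inhibitor, had 235 to 326 counts at the increased dose and 83.9 to 243 at the standard dose, with a log2 fold change of 0.80 (0.39 without replicates 9 and 41). JUN, a part of AP-1, had a log2 fold change of 0.72 and FOS of 0.11 (0.30 without replicates 9 and 41). The NF-kB inhibitor NFKBIA had one of −0.05 (−0.11 without replicates 9 and 41). For the kinase TBK1 it was 1.17 (standard error 0.67, adjusted p = 0.456 by limma, and 0.88 without replicates 9 and 41). TBK1 values overlapped, with 14.5 to 67.8 counts at the increased dose and 4.48 to 53.7 at the standard dose.

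Of 20 target cytokines and enzymes, 19 were measured, 11 tested and 0 passed, with a median log2 fold change of 0.14, which turned to −0.17 without replicates 9 and 41. IL6 had at most 1.71 normalized counts at the increased dose and 4.48 at the standard dose, and IFNB1, IL23A and CCL20 had 0 reads in all libraries. CCL4, a chemokine of macrophages, had 109 to 430 counts at the increased dose and 44.8 to 304 at the standard dose (log2 fold change 0.99, adjusted p = 0.431 by limma, and 0.28 without replicates 9 and 41). CCL5, PTGS2 and CXCL10 had log2 fold changes of −0.13, 0.60 and −0.40, with −0.48 for CCL5 without replicates 9 and 41. Of the list of vitamin D and antimicrobial genes, RXRA, the partner of the vitamin D receptor, was tested, with a log2 fold change of −0.20. VDR, the vitamin D receptor itself, had 0.905 to 12.2 counts at the increased dose and 4.57 to 16.8 at the standard dose, and was below the limit for testing.

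**Figure D5:**
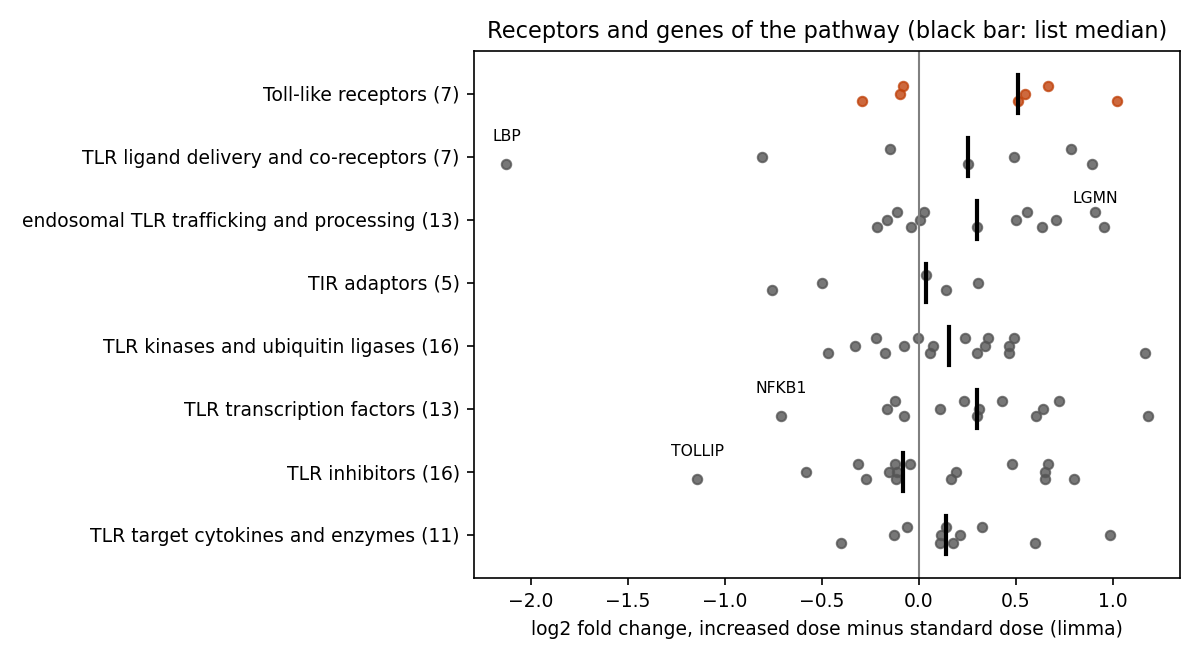
Log2 fold change of each gene tested, increased dose minus standard dose by limma, for the 7 receptors (top) and 7 lists of pathway genes with the number tested in brackets, with a black bar at each median. The receptor median is 0.51 (0.22 without standard dose replicates 9 and 41), list medians lie between −0.08 and 0.30 (−0.24 and 0.30 without them), and LBP, TOLLIP, NFKB1 and LGMN are named.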

How the data were processed

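Lung RNA of 5 pigs on the increased and 4 on the standard dose of cholecalciferol was sequenced as 3′ tags (75 bp single reads). Per the methods and labels, reads were checked with FastQC, trimmed with FLEXBAR, mapped to Sscrofa11.1 with TopHat and counted with HTSeq-count on Ensembl annotation. The authors deposited a signal value per gene and library, its read count over a DESeq2 size factor. Columns with the authors' own fold changes, standard errors, test statistics and p-values were not used. Of the values above 0 in every library, 100% were whole multiples of 1 read within 0.01 of a read, so reads were recovered by division. The depth per sample is given with the receptors, and its precision covers counting error only. The labels give no batch, and replicates are separate animals. The title of standard dose replicate 33 and its column name differ in number, and the title was followed.

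Genes without a name were named from the Ensembl name table (223) or by RefSeq genes with a reciprocal overlap of at least 80% (635). Of the 12446 genes with a mean over 20, differences of log2(value + 1) were fitted with limma 3.58.1 (mean-variance trend), two-sided, with Benjamini-Hochberg adjustment at 0.05. Single receptors were also tested by exact permutation of the dose labels over the libraries. Named pathway genes were the 3 with the highest mean and the smallest p of each list, those past the threshold, and direct partners of receptors, though not all of them are described. LGMN is also the gene DESeq2 called. Ranges, not values per library, are given for some. The genes most like TLR4 were the 3 with the smallest root mean square difference. The receptors, the lists and the tests were chosen with earlier results of these data known. Alternatives were pseudocounts of 0.5 and 5, other filters, TMM factors, edgeR 4.0.16 and DESeq2 1.42.0 on recovered reads, linear scale permutation, and libraries left out singly or replicates 9 and 41 together. Promoters and transcripts were read from the RefSeq genome and annotation of Sscrofa11.1. R 4.3.3, Python 3.11.15, pandas 2.3.3, numpy 2.4.6, scipy 1.17.1 and matplotlib 3.10.9 were used. Code of the tests was first tested on simulated counts. Bisulfite sequencing is not analysed here.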

Additional observations from a re-analysis of the deposited data

Results flagged for a closer look

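Within a group, a library was set aside for a closer look when its gap to the nearest library was above the critical share of the group's range in Dixon's test, which by chance takes about 1 in 20 groups. Of the 82 groups of the 10 receptors and 31 named pathway genes, 7 were taken, 2 of them of a receptor. TLR9 had 14.5 normalized counts in increased dose replicate 19, against 0.871 to 4.12 in the other increased-dose libraries. TLR9 had 6.96 counts in standard dose replicate 33, against 0 to 0.914 in the other standard-dose libraries. Standard dose replicate 9 was far above the other 3 standard-dose libraries for CD14 (1650.01, against 222 to 304), LBP (10332.7, against 311 to 729), CNPY3 (226.765, against 14.6 to 47.5) and TOLLIP (1963.31, against 417 to 432). TBK1 had 14.5 counts in increased dose replicate 19, against 57.5 to 67.8 in the other increased-dose libraries.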

How the results depend on the processing

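Of 116 values of the receptors' log2 fold changes under other settings, 110 kept their direction and side of the adjusted threshold and 6 reversed. TLR1 lay between −0.28 and 0.0893 with single libraries left out (exact permutation p of 0.314 to 1). TLR3 lay between −0.21 and 0.0350 (p of 0.143 to 0.786, permutation). Without standard dose replicates 9 and 41, TLR3 was at 0.0509 (exact permutation p = 0.810) and TLR8 at −0.17 (exact permutation p = 0.857). The TLR5 difference in mean log2 level turned positive without them (exact permutation p = 0.952) and without replicate 9 alone (exact permutation p = 0.804), and its exact permutation p was 0.196 to 0.946 with single libraries left out. For TLR4 the exact permutation p was 0.0952 without replicates 9 and 41. DESeq2 called 195 of all genes and 1 of the pathway genes, where limma called 0 of each, and no receptor was called under any setting. The cause of these differences was not tested. TMM factors moved the median of all genes to 0.06. TLR5 had a mean under 20 in some fits with a library left out, and TLR6, TLR9 and TLR10 could be fitted only under weaker filters on low values. Depth was lowest for TLR9 and TLR10, which had the fewest reads. No paired analysis was possible because the groups share no replicate numbers.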
